A study of Saccharomyces cerevisiae with 61 samples.

Results

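The chromosome stretches examined lie between 20 and 110 kb from a chromosome end in budding yeast, and the measurements are peaks of topoisomerase I (Top1) and topoisomerase II (Top2) in meiotic cells. A peak belonged to an end-adjacent region when its midpoint fell in that distance range on any chromosome except I, III, VI and XII. The left end was position 0, and the right end was the highest peak end of that chromosome in either list. By this rule 833 of the 4993 peaks of both lists were members, 374 of 2234 Top1 peaks and 459 of 2759 Top2 peaks. They came from 24 ends of 12 chromosomes. The regions made up 2160 kb, or 21.7% of the length of these chromosomes, and held 19.4% of their peaks. The comparison regions were the interior, over 110 kb from both ends (7316 kb), and the outer 20 kb at each end (480 kb).

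The series profiles topoisomerases in synchronous meiosis of SK1, a strain background that sporulates efficiently. The Top1 peaks come from 2 anti-Myc ChIP samples of a TOP1-13MYC strain, H9847, each with its input. The Top2 peaks come from 2 anti-Top2 ChIP samples of an untagged wild type (WT), H7797, each with its input. All 8 samples were taken 3 h after transfer to sporulation medium, at 30 °C. Top1 was thus read through an epitope tag and Top2 through the native protein, in different strains, and no mutant or second time point enters these lists. The series also holds anti-Myc ChIP samples of untagged cells at 3 h and 30 °C. The Top1 peaks were not compared with them here. The authors merged the replicates before calling peaks, so each value below exists once per list, with no spread over samples and no test over samples. Intervals of 95% are exact binomial ones, or order-statistic ones for medians, and cover counting error only. Neighbouring peaks are not independent, so the intervals are approximate.

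Top1 relaxes supercoils by nicking and rejoining one DNA strand, and Top2 passes one DNA duplex through another. Both act where transcription and replication twist DNA, and Top2 also untangles and compacts chromosomes. In budding yeast meiosis, the zones beside chromosome ends are known for retaining the axis protein Hop1 late in prophase and for continued formation of DNA double-strand breaks there. Short chromosomes consist of such zones to a larger extent than long ones.

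Peaks of both topoisomerases were spaced more widely in the end-adjacent regions than in the interior. Top1 peaks numbered 17.3 per 100 kb in end-adjacent regions, against 20.2 per 100 kb in the interior, a ratio of 0.857 (95% interval 0.763 to 0.961). Top2 peaks numbered 21.3 per 100 kb in end-adjacent regions and 24.9 per 100 kb in the interior, a ratio of 0.854 (95% interval 0.769 to 0.947). The ratio was thus nearly the same for both proteins. Peaks covered 12.9% of the end-adjacent bases and 15.2% of the interior bases for Top1. For Top2 they covered 16.5% of the end-adjacent bases and 18.4% of the interior bases. The median distance between midpoints of neighbouring Top1 peaks was 4.24 kb in end-adjacent regions and 3.70 kb in the interior. For Top2 it was 3.82 kb in end-adjacent regions and 3.35 kb in the interior.

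Single chromosomes showed the same order with few exceptions. Top1 density was lower in the end-adjacent regions than in the interior on 10 of 12 chromosomes, the exceptions being IV and XI. Top2 density was lower there on 11 of 12, the exception being IV. With each chromosome left out in turn, the ratio stayed between 0.844 and 0.876 for Top1 and between 0.837 and 0.866 for Top2. Among Top1 peaks of 1.5-fold or more the ratio was 0.788, with an interval of 0.536 to 1.13 that included 1. To set the regions against stretches of equal length, the interior was divided into 77 windows of 90 kb. Top1 had 15.6 ± 3.24 peaks per end-adjacent region (SD over 24 ends) and 18.2 ± 3.74 per interior window (SD over 77 windows). Top2 had 19.1 ± 2.51 peaks per end-adjacent region and 22.4 ± 2.89 per interior window, also as mean ± SD. The difference between the means was smaller than the SD between windows for Top1 and slightly larger than it for Top2, and the ranges overlapped for both. For Top2, 23 of 24 ends lay below the interior median of 23 peaks, and for Top1, 18 of 24 lay below the interior median of 19 peaks.

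**Figure D1:**
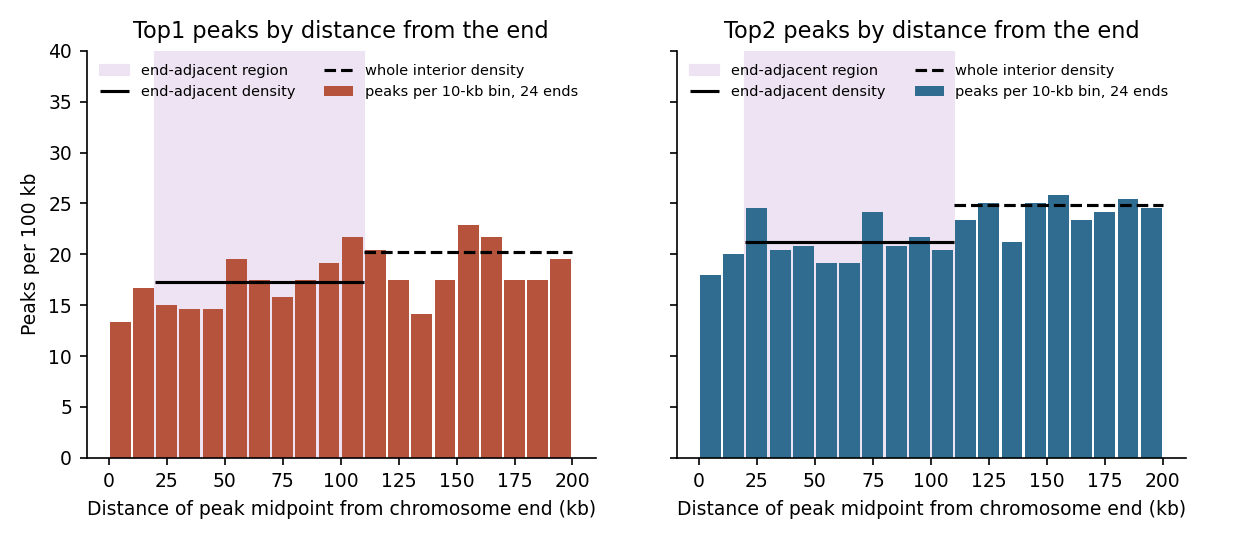
Peaks per 100 kb (vertical axis) in bins of 10 kb by distance of the peak midpoint from the chromosome end (horizontal axis), over 24 ends, with Top1 on the left and Top2 on the right. The shaded band is the end-adjacent region, the solid line its density (17.3 for Top1, 21.3 for Top2) and the dashed line that of the whole interior (20.2 for Top1, 24.9 for Top2).

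The distance profile had no step at 110 kb for Top1. Top1 density was 14.7 peaks per 100 kb at 20 to 50 kb from the end, 17.6 at 50 to 80 kb and 19.6 at 80 to 110 kb. Beyond the limit it was 17.2 at 110 to 140 kb, 20.7 at 140 to 170 kb and 18.2 at 170 to 200 kb, and 20.8 farther in than 200 kb. The lowest Top1 value among these segments was thus in the part of the region nearest the end. Top2 density was flat within the region, with 21.9, 20.8 and 21.0 peaks per 100 kb in its outer, middle and inner 30 kb. It was 23.2 at 110 to 140 kb, 24.7 in each of the following 30-kb segments and 25.2 farther in than 200 kb.

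The 24 ends differed widely among themselves. The number of Top1 peaks in an end-adjacent region ran from 8 to 21, with a median of 15, and that of Top2 peaks from 12 to 24, with a median of 19. The right end of IV was the densest in both lists, with 21 Top1 and 24 Top2 peaks. The left ends of VIII and XV followed for Top1, with 20 peaks each. The left ends of IV and XV and the right end of XI followed for Top2, with 22 peaks each.

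The sparsest Top1 region was the left end of XIV, with 8 peaks, followed by the left ends of VII and IX, with 11 each. The sparsest Top2 region was the left end of XI, with 12 peaks, followed by the right end of XIV, with 16. The few Top2 peaks at the left end of XI were wide, with a median of 1040 bases. Across the 24 ends, the count of Top1 peaks correlated with that of Top2 peaks (Pearson's r = 0.483, Spearman's rho = 0.548). This is a description over ends that all come from the same pair of merged lists and the same assembly. Left and right ends held similar totals, 181 and 193 Top1 peaks and 226 and 233 Top2 peaks.

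**Figure D2:**
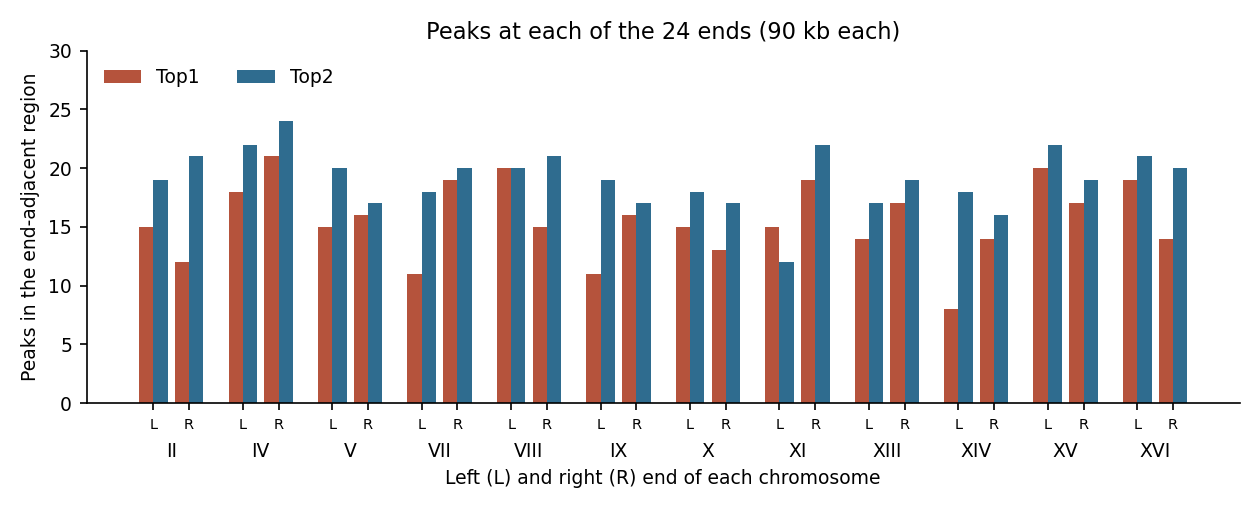
Number of Top1 and Top2 peaks (vertical axis) in the 90-kb end-adjacent region at the left (L) and right (R) end of each of 12 chromosomes (horizontal axis). Top1 counts run from 8 to 21 and Top2 counts from 12 to 24, with the right end of IV highest in both.

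In the full lists, a smaller share of end-adjacent than of interior peaks overlapped the other protein. The interval of this difference included 0 under some of the alternatives run and not under others. Of the 374 end-adjacent Top1 peaks, 284 shared 1 base or more with a Top2 peak, or 75.9% (95% interval 71.3 to 80.2%), against 1206 of 1478 in the interior, or 81.6% (79.5 to 83.5%). Over all Top1 peaks the share was 79.9%. The difference in the Top1 share between end-adjacent regions and interior was -5.66 percentage points (95% interval -10.6 to -1.11). Of the 459 end-adjacent Top2 peaks, 283 overlapped a Top1 peak, or 61.7% (57.0 to 66.1%), against 1222 of 1820 in the interior, or 67.1% (64.9 to 69.3%), with 65.4% over all Top2 peaks. The difference in the Top2 share was -5.49 percentage points (-10.5 to -0.630). With both lists restricted to peaks of 1.5-fold or more, the Top2 difference was -0.735 points (-4.63 to 4.11). Only 10.9% of end-adjacent Top2 peaks were then shared, and 10.7% of all Top1 peaks reached that fold. So small a share leaves little room for a difference, and this value cannot decide whether stronger Top2 peaks lack one. With both lists at or above their median −log10 q, the Top2 difference was -2.98 points (-10.4 to 4.44). It was -4.36 points (-9.45 to 0.729) where sharing needed a midpoint inside the other peak. The Top2 interval also included 0 without II, IX or XIV, with differences of -4.96, -4.67 and -4.70 points. For Top1 the interval included 0 under the midpoint rule (-4.64 points, -10.1 to 0.637), for regions of 20 to 80 kb (-4.34 points, -10.4 to 0.984), among peaks of 1.5-fold or more (-11.2 points, -28.4 to 3.89) and without XV (-4.53 points, -9.71 to 0.179). Among Top1 peaks at or above the median −log10 q the difference was -10.1 points (-18.0 to -2.30). These thresholds were again applied to both lists. With a reciprocal overlap of at least 50%, the differences were -7.46 points for Top1 (-13.0 to -1.79) and -6.20 points for Top2 (-11.1 to -1.16). On all 16 chromosomes they were -6.85 points for Top1 (-11.3 to -2.66) and -7.54 points for Top2 (-12.0 to -3.16). Both shares were lower in end-adjacent regions on 9 of 12 chromosomes, with higher values on II, IV and VIII for Top1 and on VIII, XI and XIII for Top2. An overlap is met more easily where the other list covers more bases, and coverage was also lower in the end-adjacent regions, as given above. The part of coverage in the lower shares was not tested.

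Peaks of both lists that shared bases were joined into sites to see which kind of place was sparser. The end-adjacent regions held 539 sites, of which 273 carried both proteins, 90 Top1 only and 176 Top2 only. Sites with both proteins numbered 12.6 per 100 kb in end-adjacent regions and 16.05 per 100 kb in the interior, a ratio of 0.788 (95% interval 0.688 to 0.899). Sites with Top1 only numbered 4.17 per 100 kb in end-adjacent regions and 3.72 per 100 kb in the interior, a ratio of 1.12 (0.873 to 1.43). Sites with Top2 only numbered 8.15 per 100 kb in end-adjacent regions and 8.17 per 100 kb in the interior, a ratio of 0.997 (0.838 to 1.18). Co-occupied sites thus showed the lower density, and the intervals of both single-protein kinds included a ratio of 1. The difference between these ratios was not tested. A co-occupied site needs a peak of each list, and both lists were sparser in the end-adjacent regions. What part this had in the lower co-occupied density was not tested. In the outer 20 kb, co-occupied sites numbered 11.9 per 100 kb, also below the interior value. The end-adjacent density of co-occupied sites was 1.06 times that of the outer 20 kb (0.798 to 1.44). With the ends set by this rule, a lower density than in the interior was thus not particular to the end-adjacent regions. The outer density depends on where the left ends are set. For sites, the comparison with the outer 20 kb was not repeated with the left end at the first peak. For Top1-only and Top2-only sites the ratios to the outer 20 kb were 1.54 (0.856 to 3.00) and 1.22 (0.835 to 1.84).

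The split between site kinds depended on the peak threshold. With only the peaks at or above the median −log10 q of their list, the ratio was 0.709 (0.568 to 0.878) for co-occupied sites and 0.783 (0.626 to 0.971) for Top2-only sites. With both lists restricted to peaks of 1.5-fold or more, it was 0.6998 (0.436 to 1.08) for co-occupied and 0.781 (0.671 to 0.905) for Top2-only sites. Under these stricter thresholds Top2-only sites had a lower density in end-adjacent regions as well. They then include sites whose Top1 peak lay below the threshold, so they are not the same kind of site as in the full lists.

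Per region of 90 kb, co-occupied sites averaged 11.4 ± 2.89 in the end-adjacent regions (SD, 24 ends) and 14.4 ± 3.70 in the interior (SD, 77 windows). At 20 of 24 ends the number was below the interior median of 14, and at 3 above it. Top1-only sites averaged 3.75 ± 1.78 in end-adjacent regions and 3.39 ± 1.69 in interior windows. Top2-only sites averaged 7.33 ± 2.68 in end-adjacent regions and 7.403 ± 2.79 in interior windows.

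**Figure D3:**
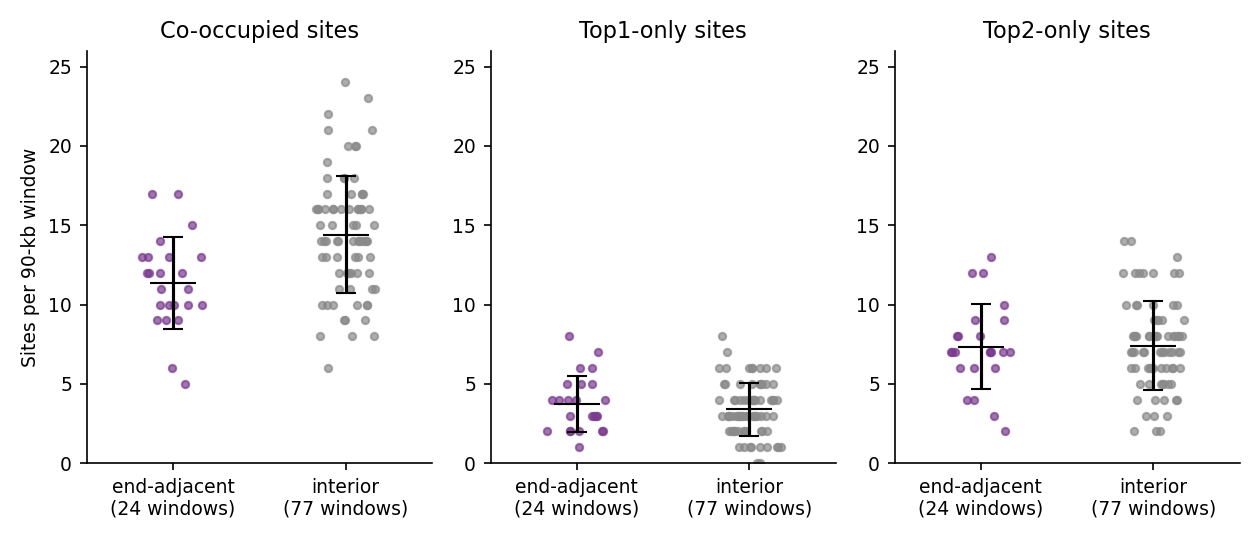
Sites per 90-kb window (vertical axis) for co-occupied, Top1-only and Top2-only sites, with 1 point for each of the 24 end-adjacent regions and 77 interior windows and the mean ± SD in black. Co-occupied sites average 11.4 in end-adjacent regions and 14.4 in the interior. Top1-only sites average 3.75 in end-adjacent regions and 3.39 in the interior, and Top2-only sites 7.33 and 7.403.

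Co-occupied sites were less dense in the end-adjacent regions than in the interior on 11 of 12 chromosomes. Chromosome IV was the exception, with 17.8 per 100 kb in its end-adjacent regions and 17.0 per 100 kb in its interior. Chromosome XIV had the lowest end-adjacent value, 8.33 per 100 kb, against 14.8 per 100 kb in its interior. On IX the values were 10.6 per 100 kb in end-adjacent regions and 18.1 per 100 kb in the interior. Neither of the other kinds had such an order. Top1-only density was lower in end-adjacent regions on 7 chromosomes and higher on 5, and Top2-only density was lower on 5 and higher on 7. With distance from the end, co-occupied sites numbered 11.8 per 100 kb at 20 to 50 kb, 12.4 at 50 to 80 kb and 13.8 at 80 to 110 kb. Farther in there were 14.0 at 110 to 140 kb, 15.8 at 140 to 170 kb, 14.6 at 170 to 200 kb and 16.6 beyond 200 kb. The values on each side of 110 kb were close to one another.

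**Figure D4:**
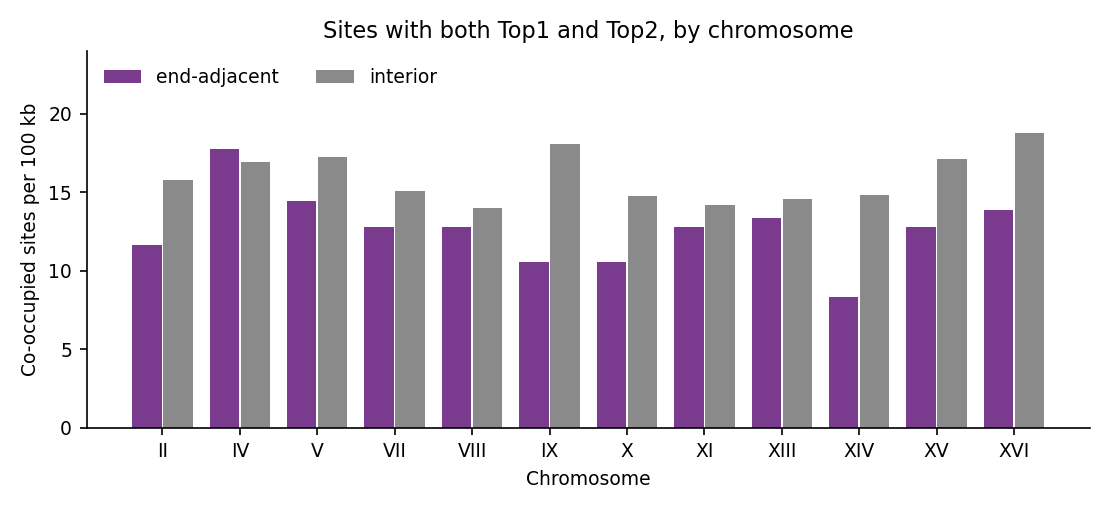
Density of sites that carry both Top1 and Top2, in sites per 100 kb (vertical axis), in the end-adjacent regions and the interior of each chromosome (horizontal axis). The end-adjacent bar is the lower one on 11 of 12 chromosomes and the higher one on IV.

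Opposite ends of 1 chromosome also differed. On VII, the left region held 11 Top1 and 18 Top2 peaks, and 6 peaks of each list overlapped the other list. The right region of VII held 19 Top1 and 20 Top2 peaks, with 17 of each shared. The Top2 peaks had a median width of 305 bases on the left of VII and 1068 bases on the right. The left region of XIV had the lowest shared portion of Top2 peaks, 5 of 18 or 27.8%, and the right region of VII the highest, 85.0%. These ends were picked for their values and are a description.

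Within shared places, most measures of fit between both proteins were slightly weaker than in the interior. These differences were not tested. Each of the 284 shared Top1 peaks was paired with the Top2 peak it overlapped most. The median overlap was 340 bases in end-adjacent pairs and 356 bases in interior pairs. The midpoints were a median of 119 bases apart in end-adjacent pairs and 102 bases apart in interior pairs. In 60.2% of end-adjacent pairs (95% interval 54.3 to 65.9%) the overlap made up at least 50% of both peaks, against 65.2% of interior pairs (62.4 to 67.9%). The Top1 midpoint lay on the side toward the chromosome centre in 152 end-adjacent pairs and on the side toward the end in 132. Fold enrichments of paired peaks correlated with a rho of 0.223 over the 284 end-adjacent pairs and 0.308 over the 1206 interior pairs. Pairs share libraries and neighbourhoods, so these are descriptions.

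Peak width had a less uniform pattern. End-adjacent Top1 peaks had a median width of 436 bases (95% interval 394 to 487), against 470 bases in the interior (439 to 497). End-adjacent Top2 peaks had a median of 424 bases (381 to 492), against 450 bases in the interior (429 to 471). These intervals overlapped, and the order of the Top2 medians changed with the threshold. Among peaks at or above the median −log10 q of the list, the end-adjacent median of Top2 width was 1.28 times that of the interior (1.06 to 1.58), and among peaks of 1.5-fold or more 1.26 times (0.865 to 1.49). These ratio intervals carry the error of the end-adjacent median only and leave out that of the interior median.

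Wide peaks were about as frequent in both regions. The 90th percentile of Top2 width was 1792 bases in end-adjacent regions and 1605 bases in the interior, and that of Top1 width was 1470 bases in end-adjacent regions and 1632 bases in the interior. Peaks over 1000 bases were 25.7% of end-adjacent Top2 peaks (95% interval 21.8 to 30.0%) and 23.9% of interior ones (21.96 to 25.9%), with 24.3% over the whole list. For Top1 they were 23.0% of end-adjacent peaks (18.8 to 27.6%) and 23.5% of interior ones (21.3 to 25.7%), with 23.6% over the whole list. The shares of wide peaks did not stand apart from the list as a whole.

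Shared peaks were wider than unshared ones in both regions, and a wider peak also meets another more easily. Top2 peaks with Top1 had a median width of 683 bases in end-adjacent regions (95% interval 548 to 792) and 545 bases in the interior (520 to 608). Top2 peaks without Top1 had a median of 329 bases in end-adjacent regions (306 to 360) and 350 bases in the interior (338 to 365). The ratio of the shared Top2 medians, end-adjacent over interior, was 1.25 (1.01 to 1.45, with the error of the end-adjacent median only). Its interval included 1 under most alternatives run, and with a reciprocal overlap of at least 50% as the rule for sharing the ratio was 0.983 (0.783 to 1.35). Top1 peaks with Top2 had a median of 504 bases in end-adjacent regions and 532 bases in the interior. Top1 peaks without Top2 had medians of 353 bases in end-adjacent regions and 345 bases in the interior.

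By width, 53 of 123 end-adjacent Top2 peaks under 300 bases overlapped Top1, or 43.1% (34.2 to 52.3%), against 50.2% in the interior (45.3 to 55.2%). Among those over 1000 bases, 102 of 118 did so in end-adjacent regions, or 86.4% (78.9 to 92.0%), against 86.2% in the interior (82.6 to 89.3%). For Top1 peaks over 1000 bases the share was 94.2% in end-adjacent regions (87.0 to 98.1%) and 97.1% in the interior (94.8 to 98.6%). Among Top2 peaks of 300 to 1000 bases, the largest class, 58.7% overlapped Top1 in end-adjacent regions (51.9 to 65.3%) and 65.6% in the interior (62.6 to 68.6%). For Top1 peaks of that class the shares were 71.0% in end-adjacent regions (63.9 to 77.4%) and 78.2% in the interior (75.0 to 81.1%). Among wide Top2 peaks the shares with Top1 therefore lay within 1 percentage point of each other. In both narrower classes of Top2 peaks the end-adjacent share was the lower one, with overlapping intervals.

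**Figure D5:**
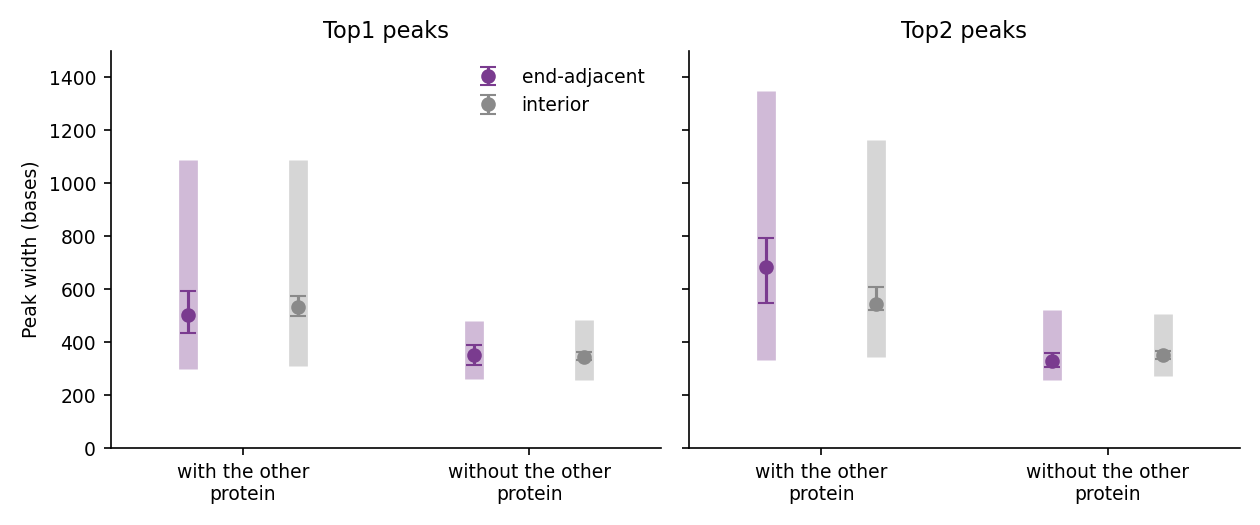
Median peak width in bases (vertical axis, points) with the 95% interval of the median (error bars) and the quartile range (pale bars), for peaks with and without the other protein, in end-adjacent regions and the interior, Top1 on the left and Top2 on the right. Top2 peaks with Top1 have a median of 683 bases in end-adjacent regions and 545 bases in the interior.

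Within the region, Top2 width was greatest near its inner limit. The median was 393 bases at 20 to 50 kb, 384 bases at 50 to 80 kb and 575 bases at 80 to 110 kb. Past the limit, at 110 to 140 kb, it was 381 bases. The medians of Top1 width in the same segments were between 403 and 456 bases.

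The fold enrichment over input, which is the authors' own value per peak and describes peaks within 1 list, had a lower median in the end-adjacent regions for Top2 in the full list. Its median was 1.52 in end-adjacent regions (95% interval 1.50 to 1.56) and 1.58 in the interior (1.56 to 1.60), and it was lower in the end-adjacent regions on 10 of 12 chromosomes, all except XI and XIII. The difference between the medians was -0.063, with an interval of -0.085 to -0.027 that carries the error of the end-adjacent median only. It was -0.037 (-0.099 to 0.013) among peaks at or above the median −log10 q and -0.055 (-0.10 to 0.00091) among peaks of 1.5-fold or more, so both of these intervals included 0. The 1.5-fold threshold selects peaks by the value compared, so it cannot decide whether the difference holds. A fold enrichment of at least 2 was reached by 53 of 459 end-adjacent Top2 peaks, or 11.5% (8.77 to 14.8%), against 301 of 1820 in the interior, or 16.5% (14.9 to 18.3%), with 14.9% over the whole list. A fold of at least 1.5 was reached by 247 end-adjacent Top2 peaks, or 53.8% (49.1 to 58.4%), against 59.3% in the interior (57.0 to 61.6%), with 56.9% over the whole list. The lower medians were found in both kinds of Top2 peak, with overlapping intervals within each kind. The median was 1.60 in end-adjacent regions and 1.67 in the interior for Top2 peaks with Top1, and 1.42 in end-adjacent regions and 1.46 in the interior for those without.

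For Top1, the medians were 1.32 both in end-adjacent regions (1.30 to 1.33) and in the interior (1.32 to 1.33), so no difference was detectable with these peaks. A fold of at least 1.5 was reached by 37 end-adjacent Top1 peaks, or 9.89% (7.06 to 13.4%), against 10.8% in the interior (9.22 to 12.4%), with 10.7% over the whole list. No end-adjacent Top1 peak reached 2, which with 0 of 374 allows a share of up to 0.802% by a limit of 3 counts, or 0.981% by the exact binomial interval, against 2 of 1478 in the interior and 0.134% over the whole list.

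The 5 strongest end-adjacent peaks of each list overlapped the other list, among members of which 75.9% for Top1 and 61.7% for Top2 did so. Unshared peaks followed a few ranks below, the first with a fold of 1.62 for Top1, on the left of VIII from 64629, and 2.30 for Top2, on the right of IV from 1438030. The highest Top2 fold enrichment there was 2.90, at 887038 to 888191 of chromosome XIII in the SK1 assembly named Yue, 24.6 kb from the right end. It ranked 18 among all 2759 Top2 peaks and shared 945 bases with a Top1 peak of 1.38-fold. The next Top2 peaks lay on the left of II, with a fold of 2.73 at 63137 to 63684 and 2.55 at 98835 to 99201. They were followed by 2.47 at 64023 to 66384 on the left of XIII and 2.43 at 318853 to 321452 on the right of IX. All 5 overlapped a Top1 peak, with Top1 fold enrichments between 1.29 and 1.40. Annotated genes at these peaks were not analysed here.

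The highest end-adjacent Top1 fold enrichment was 1.71, at 31890 to 32189 on the left of IX, which ranked 23 among all 2234 Top1 peaks. A peak of nearly the same fold, 1.71, lay at 989507 to 989979 on the right of VII. The others of the top 5 were 1.68 at 85578 to 86866 on the left of XIII, 1.67 at 962269 to 963896 on the right of VII and 1.65 at 73831 to 77497 on the left of XI. All 5 overlapped a Top2 peak. The sets of strongest Top1 and strongest Top2 peaks had no pair in common. With 5 peaks picked per list, from 374 Top1 and 459 Top2 members, a common pair would be rare even if the ranks were unrelated. The absence of one is therefore not a result about the proteins.

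The 3 widest Top1 peaks of the entire list lay in end-adjacent regions. They measured 5793 bases on the right of XV, at 1003647 to 1009439, 5296 bases on the left of VIII, at 56348 to 61643, and 5264 bases on the left of XVI, at 94940 to 100203. The peak on XV spanned 3 Top2 peaks, with folds of 2.34, 1.20 and 2.14 in order of position. The site on VIII and that on XVI each joined 1 Top1 peak with 2 Top2 peaks. Their Top1 folds were moderate, 1.52 on XV, 1.48 on VIII and 1.45 on XVI.

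The widest end-adjacent Top2 peak measured 4565 bases, at 73001 to 77565 on the left of XI, and ranked 3 by width among all Top2 peaks. It contained the whole of a Top1 peak of 3667 bases, which was also among the 5 strongest Top1 peaks, and its own fold was 2.28. The others were 4317 bases at 55808 to 60124 on the left of XVI and 4231 bases at 915050 to 919280 on the right of XVI. The longest overlap of both proteins was 4122 bases, at the site on the right of XVI, where a Top1 peak at 915146 to 919267 lay wholly within the Top2 peak. It was followed by the pair on XI and by one of 3354 bases on the right of XV, at 951092 to 954445, where the Top2 fold was 2.37 and the Top1 fold 1.34.

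Long stretches held no peak of either list. The longest within the end-adjacent regions were 15.1 kb on the right of II, from 758071 to 773129, 15.04 kb on the left of VII, from 43756 to 58796, and 14.9 kb on the left of IX, from 93131 to 108026. The left regions of VII and IX were also among the sparsest by Top1 count. Gaps of over 15 kb between neighbouring Top2 midpoints made up 6 of 435 in end-adjacent regions and 7 of 1808 in the interior, while for Top1 they made up 12 of 350 in end-adjacent regions and 46 of 1466 in the interior.

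Peaks at the limits of the regions showed what the distance rule separated. The member nearest to the 20-kb limit was a Top2 peak of 1251 bases and 1.55-fold on the left of VIII, 20.1 kb from the end. The nearest Top2 peak outside it, 260 bases wide and 1.17-fold, lay 19.2 kb from the left end of IX. For Top1, the member nearest to 20 kb was 20.4 kb from the right end of XIV, with a fold of 1.38. The nearest outside was 19.9 kb from the left end of XIII, with a fold of 1.33. At the inner limit, peaks on the left of VIII stood on both sides, a Top1 peak with its midpoint at 110 kb counted as a member and a Top2 peak at 110.02 kb counted as interior, and both were shared. The last Top2 member lay 109.96 kb from the right end of IV, with a fold of 1.44, and the first interior Top1 peak 110.51 kb from the left end of XIV, with a fold of 1.28.

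In the outer 20 kb, densities were 15 Top1 peaks and 19.0 Top2 peaks per 100 kb. The end-adjacent density was 1.15 times that value for Top1 (95% interval 0.895 to 1.51) and 1.12 times for Top2 (0.893 to 1.42), so no difference was detectable with 72 and 91 outer peaks. This comparison depended on how the ends were set. The left outer regions held 23 Top1 and 28 Top2 peaks and the right ones 49 and 63. The right end is by rule the last peak, while the left end is set without regard to peaks. How much of the left-right difference came from this rule was not tested. The first peak on the left began at a median of 7.32 kb for Top1 and 7.53 kb for Top2. With the left end moved to the first peak, the ratios were 0.966 for Top1 and 0.870 for Top2. The shares of co-occupied peaks in the outer 20 kb were 81.9% for Top1 (71.1 to 90.02%) and 64.8% for Top2 (54.1 to 74.6%). Both intervals included the end-adjacent share of the same list and also its interior share.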

How the data were processed

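Peaks were analysed for 2 merged lists, from TOP1-13MYC cells (anti-Myc) and WT cells (anti-Top2), each from 2 ChIP samples with inputs. MACS2 2.1.1 is named in the submitters' processing notes, and thresholds are not given in the sources used here. The deposited fold enrichment is a ratio of ChIP over input, and the deposited peak strength is a −log10 q-value. The deposited score column is 10 times that value and was not used. The file names mark both lists with different settings that are not explained, so peak numbers of Top1 and Top2 were not compared with each other. Coordinates are those of the SK1 Yue assembly, with starts counted from 1. Read depth behind the lists is unknown.

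Peaks were placed by midpoint, counted as shared at an overlap of at least 1 base, and described with Clopper-Pearson, order-statistic and, for differences of shares, Newcombe intervals. The functions were tested on simulated peaks. Named peaks were the 5 highest in fold and the 3 widest per list, the 3 longest overlaps and empty stretches, the 2 densest and sparsest ends with ties, and the peaks at the limits. Members, lists and comparisons were chosen with earlier results of these data known. Python 3.11.15, numpy 2.4.6, pandas 2.3.3, scipy 1.17.1 and matplotlib 3.10.9 were used. Alternatives were other thresholds, overlaps, limits and chromosomes. Spike-in counts and transcript levels carry no position and were not used here.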

Additional observations from a re-analysis of the deposited data

How the results depend on the processing

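Results were recomputed under 22 alternatives, 12 of which left out 1 chromosome each. The comparisons with the interior in width, share and fold and all site densities were added after seeing the data. Co-occupied site density kept a ratio below 1 under all alternatives run for it, between 0.6998 and 0.807. With peaks at or above the median −log10 q of each list, the Top2 density ratio to the interior was 0.736, the end-adjacent median widths were 748 bases for Top2 and 520 for Top1, the shares with the other protein 50.2% of Top2 and 57.4% of Top1 peaks, and the median folds 1.80 and 1.41. The ratio of end-adjacent to interior width was then 1.28 for all Top2 peaks, 0.810 for all Top1 peaks and 1.19 for shared Top1 peaks, and the Top2-only site ratio was 0.783. With a fold of at least 1.5, the widths were 666 bases for Top2 and 563 for Top1, the shares 10.9% of Top2 and 64.9% of Top1 peaks, and the median folds 1.74 and 1.55. The width ratios were then 1.26 for all Top2 peaks, 0.800 for all Top1 peaks and 1.52 for shared Top1 peaks, the Top1 share difference was -11.2 percentage points, the Top2-only site ratio 0.781 and the Top1 density ratio to the outer 20 kb 4.11, on 2 outer peaks. A reciprocal overlap of at least 50% gave shares of 37.0% of Top2 and 45.7% of Top1 peaks, and reversed the width ratio of shared Top2 peaks, to 0.983. A midpoint rule gave 51.6% of Top2 and 64.2% of Top1 peaks. With the left end at the first peak, the Top2 density ratio to the outer 20 kb was 0.870. With both lists at a fold of at least 1.5, the share difference for Top2 peaks was -0.735 points, on an end-adjacent share of 10.9%. The Top2 fold difference was -0.037 at or above the median −log10 q. Both intervals included 0. Thresholds and overlap rules select fewer peaks or pairs by construction, and other causes were not tested. No paired analysis was possible because each peak list merges its replicates.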
